A study of Rattus norvegicus with 6 samples.

Results

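Long non-coding RNAs (lncRNAs) of the left ventricle of the heart were compared with those of the outer medulla of the kidney in male Brown Norway (BN) rats, an inbred strain, aged 6 weeks. Both tissues came from rats of the same strain, sex and age, no treatment was named, and each tissue had 1 sample, so the comparison uses 2 of the 6 samples. The deposited table held 2 columns per tissue, called column 1 and column 2. Paired values for a tissue are given as column 1, then column 2. Whether a tissue's columns were separate animals is not stated in the labels, so each p-value reflects column-to-column spread alone, which may be technical. Every lncRNA transcript with values was a member of the comparison: 2455 of the 2458 listed, at 1646 loci. Levels are FPKM (fragments divided by transcript length and library total), so levels of different transcripts are per length.

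An lncRNA is a long transcript with no recognised protein product, and many lncRNAs are made in only some tissues. The left ventricle is working heart muscle, made up mainly by volume of cardiomyocytes that contract without rest. The outer medulla holds the thick ascending limbs, which reabsorb salt and help the kidney to concentrate urine. In a bulk sample, fewer cells of a type and less RNA per cell cannot be told apart.

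Of the 2455 transcripts, 623 reached a mean FPKM of 1 in at least 1 of both tissues and were tested. Among these, 191 reached that level in left ventricle alone, 255 in outer medulla alone and 177 in both. The other 1832 were not tested: 394 had a mean between 0.5 and 1 in at least 1 of both tissues, and 1438 were below 0.5 in both, of which 283 were listed at 0 in all 4 columns. Steps between low FPKM values implied about 10360000 and 10380000 fragments in the left ventricle columns and 17290000 and 18360000 in the outer medulla columns. At the median length of the tested transcripts, 1620 bases, an FPKM of 1 was then about 15.3 and 15.4 fragments in left ventricle and 25.6 and 27.2 in outer medulla. A count of 0 allows up to 3 fragments, which over 1 kb is an FPKM of 0.29 and 0.289 in left ventricle and 0.174 and 0.163 in outer medulla. These limits cover counting error only, and a listed 0 can also be a failed estimate. Among transcripts at FPKM 1 or more, 28 of 368 (7.61%) differed at least 4-fold between the left ventricle columns and 16 of 432 (3.70%) between those of outer medulla.

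The repertoires overlapped in part. Taking a mean FPKM of at least 0.5 as detection, 612 transcripts were detected in left ventricle and 764 in outer medulla. Of these, 359 were detected in both, which is 58.7% of the left ventricle set and 47.0% of the outer medulla set. When columns were rescaled to one median, the counts were 643, 695 and 350. Across the 1017 transcripts detected in either tissue, the levels on the log2(FPKM + 0.1) scale had a Pearson r of 0.0534. With a pseudocount of 0.01 it was -0.0613 and with 1 it was 0.322. Leaving out transcripts low in both tissues can itself lower r, so a value near 0 does not show unrelated levels. Across the 359 detected in both, r was 0.561. These correlations are across transcripts of the same 4 columns, describe only those columns and carry no test.

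Most of the tested transcripts differed between the tissues. By limma on log2(FPKM + 0.1), with the spread pooled over 5 tissues and an adjusted p below 0.05, 343 of 623 (55.1%) passed. Differences on this scale are log2 ratios of FPKM + 0.1, left ventricle over outer medulla, and are negative where outer medulla was higher. Of these, 148 (23.8%) were higher in left ventricle and 195 (31.3%) in outer medulla. The split depended on scaling: with columns rescaled to one median, 174 (29.9%) were higher in left ventricle and 152 (26.1%) in outer medulla, of 582 tested (56% called). Left ventricle then had 53.4% of the calls in place of 43.1%. Over the 566 transcripts tested both ways, the median difference was -0.02 (log2) as deposited and 0.33 after rescaling. All 148 left ventricle calls and 152 of the 195 outer medulla calls were also made after rescaling, and none turned. A transcript tested because of 1 tissue alone had to be lower in the other, so these shares describe the table and are no measure of how unlike the tissues are.

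**Figure D1:**
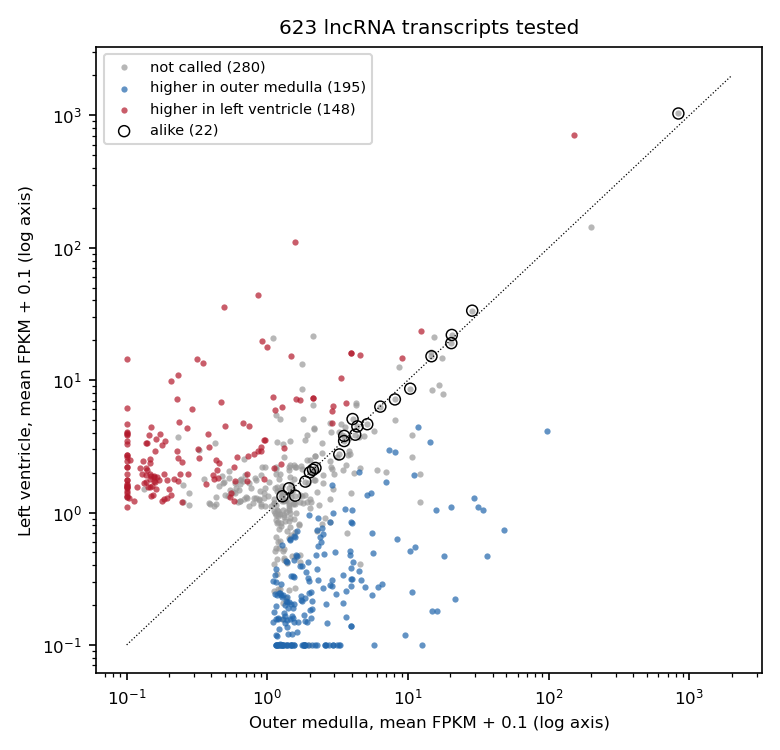
Mean FPKM + 0.1 of the 623 tested transcripts in outer medulla (horizontal, log axis) and left ventricle (vertical, log axis), each point 1 transcript. Colours mark the 148 transcripts higher in left ventricle, the 195 higher in outer medulla and those that did not pass, and black rings mark the 22 alike within 2-fold, which lie along the dotted line of equal levels.

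The differences called were large in both directions, but their size depends on the FPKM minimum and the pseudocount. Among the 148 transcripts higher in left ventricle, the median log2 difference was 3.47 (range 0.70 to 7.17) and 141 differed by at least 1. Their median of the mean FPKM was 2.39 in left ventricle and 0.107 in outer medulla. Among the 195 higher in outer medulla, the median log2 difference, as left ventricle minus outer medulla, was -3.33 (range -6.89 to -0.86). Their median of the mean FPKM was 1.83 in outer medulla and 0.133 in left ventricle. A mean of 1 or more in the other tissue was reached by 22 of the 148 and 13 of the 195. The rest entered the test only through the tissue where they were higher. The low medians lie near the pseudocount of 0.1, so similar medians in both directions are no separate result. Outer medulla was listed at 0 in both columns for 21 of the 148, and left ventricle for 33 of the 195. The columns of both tissues did not overlap for any of the 343, beside 514 of all 623 tested (82.5%). By a rule of size without a test, the lower column of 1 tissue at least 4-fold over the higher of the other on FPKM + 0.1, 105 (16.9%) were higher in left ventricle and 138 (22.2%) in outer medulla.

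Most of the left ventricle transcripts with the largest differences had no reference gene. TCONS_00060042, of 305 bases (rn5 chr2:173418576-173421499, as for all loci below the interval of the locus), had an FPKM of 118 and 103 in left ventricle against 2.30 and 0.626 in outer medulla. Its log2 difference was 6.39 (SE 1.08, adjusted p = 0.0022). TCONS_00060041, of 307 bases at the same locus, had 15.4 and 13.2 in left ventricle and was listed at 0 in both outer medulla columns (log2 difference 7.17, SE 0.25, adjusted p = 7.9e-06). Both transcripts lie at 1 locus and differ little in length, and how fragments were assigned to them is not known here. Their sum was 134 and 116 in left ventricle against 2.30 and 0.626 in outer medulla. Neither exceeded an FPKM of 1.02 in any column of liver, cortex or adrenal gland, so the locus was high in left ventricle among the 5 tissues.

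Longer transcripts showed the same separation. TCONS_00068317, of 4549 bases (chr3:142644461-142868604), had 43.2 and 43.8 in left ventricle against 0.981 and 0.531 in outer medulla (log2 ratio 5.72, SE 0.69, adjusted p = 5.1e-04). TCONS_00054657, of 2541 bases (chr2:81839891-81843858), had 36.1 and 34.8 against 0.600 and 0.182 (6.32, SE 0.54, adjusted p = 1.5e-04). The left ventricle columns lay close together for both, the outer medulla columns were less even, and the lower left ventricle column was far above the higher outer medulla column. TCONS_00074520, of 4457 bases (chr4:63020876-63025569), had 11.5 and 10.004 against 0.147 and 0.114 (5.56, SE 0.28, adjusted p = 2.6e-05). TCONS_00073275, which overlaps ENSRNOG00000050588 (chr3:181345453-181349329), had 15.7 and 12.9 against 0.323 and 0.109 (5.59, adjusted p = 1.9e-04). TCONS_00018600 (chr10:29695747-29740654) had 10.6 and 9.02 against 0.128 and 0.0821 (5.60, adjusted p = 2.3e-04). In these 3, as in the 2 before, no column of liver, cortex or adrenal gland exceeded 1.06. TCONS_00000227 (chr1:16954943-16960105) had less even columns, 8.47 and 3.63 in left ventricle, against 0.00066 and 0.000627 in outer medulla (5.81, SE 0.95, adjusted p = 0.0019). Summed over its 4 transcripts, the locus at chr8:77281781-77290811 (XLOC_064897) had 7.59 and 5.23 in left ventricle and was listed at 0 in both outer medulla columns (log2 difference 6.00, adjusted p = 5.5e-05).

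Transcripts of high level in both tissues also differed. TCONS_00015674, of 267 bases and overlapping ENSRNOG00000047167 (chr10:58888597-58890286), had an FPKM of 793 and 630 in left ventricle against 153 and 148 in outer medulla (log2 ratio 2.23, SE 0.45, adjusted p = 0.0050). This transcript had 1587 and 555 in liver, 609 and 500 in cortex, and 293 and 220 in adrenal gland. Outer medulla was thus the lowest of the 5 tissues. FPKM of so short a transcript rests on few possible fragment positions. TCONS_00099772 lies antisense to an exon of Eif4b, a translation initiation factor, and had 23.9 and 23.0 against 12.6 and 11.9 (0.93, SE 0.24, adjusted p = 0.013). Its columns were even in both tissues, but the difference stayed below 2-fold and did not pass without outer medulla column 1 or column 2 (log2 0.89 to 0.97, adjusted p = 0.055 to 0.059).

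Among transcripts assigned to a named gene, the largest difference towards left ventricle was at Mir675, the microRNA gene that lies within H19, an imprinted lncRNA abundant in fetal tissue. TCONS_00012142, of 2311 bases (chr1:222639220-222642054), had an FPKM of 8.45 and 18.4 in left ventricle against 0.318 and 0.176 in outer medulla (log2 ratio 5.21, SE 0.54, adjusted p = 2.9e-04). It was low in outer medulla alone of the 5 tissues: it reached 39.2 and 100.3 in liver, 14.3 and 17.8 in cortex, and 13.3 and 16.1 in adrenal gland. A second transcript of Mir675 was not tested, having almost no signal in either tissue. The mature microRNAs, which were not measured here, are shown from RefSeq (GRCr8) because the gene names this transcript, with the seed (bases 2 to 8) in capitals.
rno-miR-675-5p: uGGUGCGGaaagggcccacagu
rno-miR-675-3p: uGUAUGCCcuaaccgcucagu

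The other named genes beside left ventricle transcripts had varied roles. TCONS_00040367 overlaps Palld, which encodes palladin, an actin-bundling protein of the cytoskeleton (chr16:31198877-31810313). It had 7.36 and 6.21 in left ventricle against 0.360 and 0.379 in outer medulla (log2 ratio 3.87, SE 0.30, adjusted p = 1.1e-04), and at most 0.425 in the other tissues. TCONS_00039469, antisense to Spin1, a histone reader, had 5.59 and 2.22 in left ventricle and was listed at 0 in both outer medulla columns (5.18, SE 0.55, adjusted p = 3.0e-04). The left ventricle columns were uneven, yet both lay above every column of the other 4 tissues, where the highest was 0.159. TCONS_00012910 shares a splice junction with Prune2 and had 1.53 and 0.859 in left ventricle, with at most 0.00703 in outer medulla (3.60, SE 0.26, adjusted p = 9.9e-05). Without left ventricle column 1 it was too low to test. TCONS_00088081, overlapping Prkcz, an atypical protein kinase C of cell polarity, had 1.09 and 1.36 with 0 listed in outer medulla (3.72, SE 0.52, adjusted p = 8.9e-04).

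3 more antisense transcripts passed at low level. TCONS_00046645, antisense to Scgn, which encodes the calcium-binding protein secretagogin, had 3.88 and 2.83 in left ventricle against 0 and 0.176 in outer medulla (log2 difference 4.36, adjusted p = 5.7e-04). TCONS_00077107, antisense to Gucy2c, a guanylate cyclase receptor best known in the intestine, had 2.147 and 1.25 against 0 and 0.0922 (3.65, adjusted p = 3.2e-04). TCONS_00022826, antisense to Masp1, a serine protease of the complement system, had 1.35 and 1.58 with 0 listed in outer medulla (3.97, adjusted p = 0.0020). For transcripts that overlap a gene or share a splice junction with it, reads of the gene itself may be included. For antisense transcripts they may be as well, since the sources used here do not give the strand setting of the counting.

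A pair of calls that carry well known muscle and adrenal gene names were weak. TCONS_00107388, of 357 bases, shares a splice junction with Myl1, which encodes a myosin light chain of skeletal muscle. It had 4.43 and 34.9 in left ventricle against 0.695 and 0.937 in outer medulla (log2 ratio 3.79, SE 1.26, adjusted p = 0.038). Column 2 of left ventricle was far above column 1, and similar levels were found in cortex (32.1 and 36.5) and adrenal gland (34.7 and 32.4). TCONS_00098844, of 260 bases, overlaps Cyp11b3, a steroid hydroxylase gene of the adrenal gland, and had 0.801 and 2.18 in left ventricle with 0 listed in outer medulla (3.84, SE 1.29, adjusted p = 0.039). Its level in adrenal gland was 60.5 and 44.4. Neither passed without outer medulla column 1 or 2, cortex column 1 or 2, or adrenal gland column 1 or 2. The Myl1 transcript was also lost without left ventricle column 2 (log2 2.32 to 3.99 over these 7 fits, adjusted p = 0.068 to 0.21) and the Cyp11b3 transcript without left ventricle column 1 (3.84 to 4.51, adjusted p = 0.069 to 0.13), and the latter was too low to test without left ventricle column 2.

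**Figure D2:**
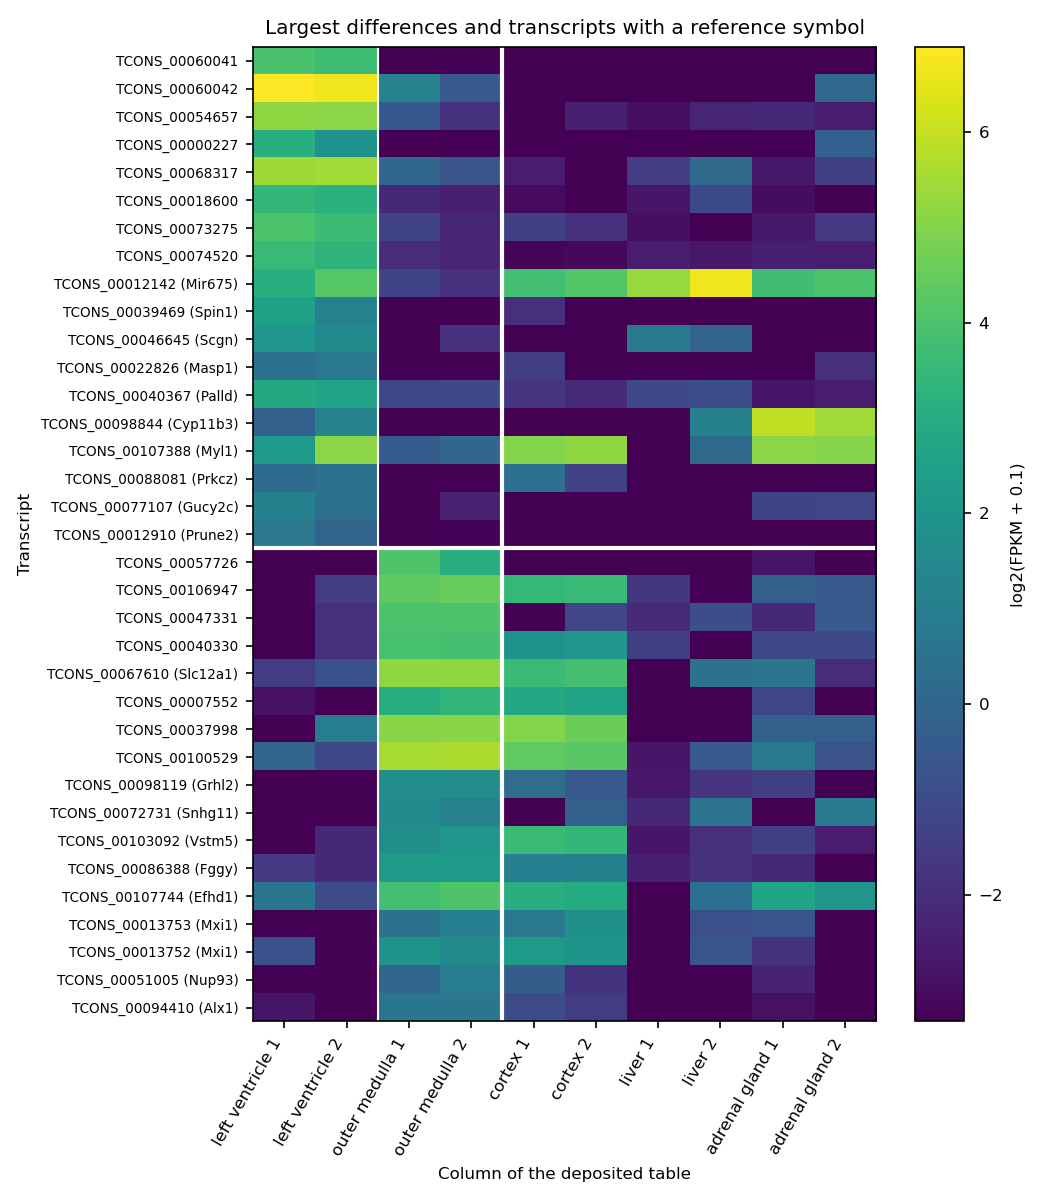
Levels, as log2(FPKM + 0.1), of the transcripts with the largest differences and of those with a reference symbol, in the 4 columns compared and in 6 columns of cortex, liver and adrenal gland. Rows above the white line were higher in left ventricle and rows below it in outer medulla; the Mir675, Myl1 and Cyp11b3 rows are also bright outside left ventricle, and many lower rows are bright in cortex.

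In outer medulla, the transcript of clearest renal context overlaps Slc12a1. This gene encodes NKCC2, the sodium-potassium-chloride cotransporter of the thick ascending limb and the target of loop diuretics. TCONS_00067610, of 530 bases (chr3:123944514-124022076), had an FPKM of 0.250 and 0.491 in left ventricle against 36.5 and 36.6 in outer medulla (log2 ratio -6.33, SE 1.30, adjusted p = 0.0052). The outer medulla columns were nearly equal and far above those of left ventricle. In cortex it had 12.2 and 14.7, and in liver and adrenal gland at most 1.501.

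The other largest outer medulla differences were at transcripts without a reference gene. TCONS_00057726, of 1149 bases (chr2:269129450-269162763), was listed at 0 in both left ventricle columns and had 16.6 and 8.37 in outer medulla (log2 ratio -6.89, SE 0.39, adjusted p = 3.3e-05). It was at most 0.0486 in liver, cortex and adrenal gland, so of the 5 tissues only outer medulla had more than a trace. TCONS_00106947 (chr9:49148500-49151866) had at most 0.243 in left ventricle and 20.3 and 22.6 in outer medulla (-6.86, adjusted p = 2.6e-04). TCONS_00047331 (chr17:75252975-75257907) had 0 and 0.163 against 15.9 and 16.1 (-6.63, adjusted p = 9.0e-04). TCONS_00040330 (chr16:26465059-26466673) had 0 and 0.163 against 14.8 and 14.5 (-6.51, adjusted p = 2.9e-04). Cortex separated these transcripts: it had 10.95 and 11.7 of TCONS_00106947 and 3.68 and 4.05 of TCONS_00040330, but only 0 and 0.336 of TCONS_00047331. TCONS_00100529, of 1706 bases (chr8:33536860-33572665), had 0.904 and 0.359 in left ventricle against 47.3 and 49.4 in outer medulla (-6.16, SE 0.84, adjusted p = 7.7e-04), with 21.2 and 19.2 in cortex.

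At 2 loci all 4 transcripts were higher in outer medulla. The locus at chr15:30010515-30035706 (XLOC_022868) had the highest level, with a sum of 9.21 and 3.13 in left ventricle against 164 and 167 in outer medulla (log2 ratio -4.92, SE 0.78, adjusted p = 0.0014). Its main transcript TCONS_00037997, of 390 bases, had 6.83 and 1.23 against 96.0 and 97.2 (-4.99, SE 1.12, adjusted p = 0.0078), and did not pass without left ventricle column 2 (-3.80, adjusted p = 0.051). TCONS_00037998, of 310 bases, had 0 and 1.90 against 34.0 and 34.0 (-6.25, adjusted p = 0.0038), and did not pass when the 4 columns were fitted alone. The left ventricle columns were uneven for both, although neither came near the outer medulla level. The locus at chr1:35676445-35681226 (XLOC_004610) had a sum of 4.22 and 0.700 in left ventricle against 71.4 and 72.4 in outer medulla (-5.27, SE 1.002, adjusted p = 0.0031). There TCONS_00007550 had 1.45 and 0.559 against 32.3 and 30.1 (-4.95, adjusted p = 3.3e-04), and TCONS_00007552 had 0.0376 and 0 against 8.20 and 10.5 (-6.32, adjusted p = 2.8e-04). Both loci were also high in cortex, with sums of 142 and 170 for the first and 57.6 and 60.4 for the second.

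2 transcripts beside developmental transcription factors were higher in outer medulla. TCONS_00098119 lies antisense to Grhl2, a transcription factor of epithelial cells (chr7:76186766-76317834). It was listed at 0 in both left ventricle columns and had 3.17 and 3.23 in outer medulla (log2 ratio -5.04, SE 0.67, adjusted p = 7.3e-04). TCONS_00007547 shares a splice junction with Irx2, an Iroquois homeobox gene (chr1:34682430-34688217), and had 0.228 and 0 against 2.06 and 1.92 (-3.53, SE 0.73, adjusted p = 0.0054). TCONS_00094410, antisense to the homeobox gene Alx1, was low in both tissues, at 0.0507 and 0 against 1.52 and 1.504 (-3.72, SE 0.35, adjusted p = 2.0e-04). Cortex lay between left ventricle and outer medulla for these 3, with 1.16 and 0.621, 1.06 and 1.42, and 0.424 and 0.245.

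Further outer medulla transcripts lay beside genes of varied function. TCONS_00103092, antisense to Vstm5, had at most 0.126 in left ventricle against 3.17 and 3.92 in outer medulla (log2 difference -4.59, adjusted p = 5.3e-04), and was higher still in cortex (12.3 and 10.8). TCONS_00086388, antisense to Fggy, a carbohydrate kinase gene, had 0.223 and 0.128 against 4.95 and 4.67 (-4.18, adjusted p = 3.1e-04). TCONS_00051005, antisense to the nuclear pore gene Nup93, was listed at 0 in left ventricle and had 0.937 and 1.86 in outer medulla (-3.83, adjusted p = 0.0015), and was too low to test without outer medulla column 2. Plagl1 is an imprinted zinc finger gene, and TCONS_00000085, which shares a splice junction with it, had 0.266 and 0.507 against 1.99 and 2.87 (-2.40, SE 0.36, adjusted p = 0.0013). Its highest level among the 5 tissues was in adrenal gland, at 6.12 and 5.30.

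4 more calls towards outer medulla did not hold when single columns were left out. TCONS_00107744, at the mitochondrial calcium-binding protein gene Efhd1, had 1.49 and 0.419 in left ventricle against 14.4 and 16.9 (log2 difference -4.11, adjusted p = 0.018). It was lost without left ventricle column 2 or either outer medulla column (-4.23 to -3.31, adjusted p = 0.071 to 0.11). A pair of transcripts antisense to Mxi1, a Max-binding antagonist of Myc, was affected in a like way. TCONS_00013752 had 0.470 and 0 against 3.85 and 2.88 (-3.84, adjusted p = 0.023) and was lost without the same 3 columns (-4.05 to -2.59, adjusted p = 0.077 to 0.13). TCONS_00013753 had at most 0.000138 against 1.28 and 2.03 (-4.10, adjusted p = 0.015), and was lost without any of the 4 columns of both tissues (-4.41 to -3.79, adjusted p = 0.051 to 0.078). At Snhg11, a host gene of small nucleolar RNAs, TCONS_00072731 had almost no signal in left ventricle and 2.76 and 2.23 in outer medulla (-4.69, SE 1.63, adjusted p = 0.044). This call was lost without any of those 4 columns or either liver column (-4.84 to -4.54, adjusted p = 0.050 to 0.15), and also after rescaling.

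Few transcripts at microRNA genes passed the test. The table named 26 microRNA genes with 81 transcripts in all, and 21 of the genes matched RefSeq. Of the transcripts, 11 were tested: 1 was higher in left ventricle (Mir675), 1 in outer medulla (Mir365) and 2 were alike. Over all tested transcripts, 55.1% were called. The 11 are not all separate members, since 3 are isoforms of the Mir143 locus and 2 of the Mir29b-2 locus. TCONS_00003260 and TCONS_00003261, both at rno-mir-1839, also had the same values in every column. TCONS_00015922, of 427 bases, lies antisense to Mir365 (chr10:64448016-64572533). It had 0.339 and 0 in left ventricle against 1.52 and 3.24 in outer medulla (log2 ratio -3.47, SE 0.71, adjusted p = 0.0051). The miR-29 family is known for acting on messages of collagens and other matrix proteins, and its genes lie at 2 clusters that both gave transcripts here. The mature miR-29b, which both clusters encode, and miR-365 were not measured. They are shown from RefSeq (GRCr8), seed in capitals, because the reference genes Mir29b-1, Mir29b-2 and Mir365 name the loci described here.
rno-miR-365-3p: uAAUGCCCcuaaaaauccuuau
rno-miR-29b-3p: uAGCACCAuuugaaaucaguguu

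The locus that carries Mir29b-1 was level as a whole and uneven in its isoforms. Summed over the 7 transcripts of the Mir29b-1 locus (chr4:58098301-58417174), FPKM was 14.2 and 12.7 in left ventricle against 13.0 and 12.7 in outer medulla. The log2 difference of the sum was 0.06, with a 95% interval of -0.38 to 0.50. The transcripts that overlap Mir29b-1 itself had almost no signal: TCONS_00078268 was at most 0.135 and TCONS_00078273 at most 0.142 in the 4 columns. The others, described next, have no reference gene. Within the locus, TCONS_00078284 was listed at 0 in both left ventricle columns and had 3.23 and 1.74 in outer medulla (-4.63, SE 0.47, adjusted p = 2.8e-04). TCONS_00078285 went the other way, at 6.62 and 6.55 against 2.88 and 4.22 (0.90, SE 0.27, adjusted p = 0.024). TCONS_00078279 had 0.657 and 0.460 against 1.37 and 1.56 (-1.26, SE 0.42, adjusted p = 0.039). TCONS_00078278 had 4.50 and 4.24 against 4.30 and 4.23 and was alike. Of the 3 calls, that of TCONS_00078285 was lost without left ventricle column 1 or 2 or outer medulla column 1 (0.63 to 0.91, adjusted p = 0.065 to 0.15). That of TCONS_00078279 was lost without any of the 4 columns or either adrenal gland column (-1.48 to -1.04, adjusted p = 0.056 to 0.15), and after rescaling. How fragments shared by isoforms were assigned is likewise not known, so isoform values of 1 locus may not be independent.

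At the second cluster, TCONS_00030100 overlaps Mir29b-2 (chr13:118271149-118366003) and had 2.03 and 1.80 in left ventricle against 1.75 and 2.06 in outer medulla. Its log2 difference was 0.01, with an interval of -0.80 to 0.81. TCONS_00030097 of the same locus had 0.956 and 1.17 against 0.550 and 0.118 and did not pass (1.62, adjusted p = 0.25). Mir143 is a microRNA gene of smooth muscle. Its transcript TCONS_00050239 had 2.75 and 2.54 against 3.28 and 3.005, and was alike (-0.24, interval -0.97 to 0.49). TCONS_00050246 had 2.147 and 1.76 against 2.41 and 1.74, with an interval just too wide for that call (-1.21 to 1.06). TCONS_00050247 had 1.71 and 1.93 against 0.619 and 0.562 and did not pass (1.48, adjusted p = 0.28), but passed without either liver column (1.48, adjusted p = 0.0019 to 0.0037). The sum over the 11 transcripts of the Mir143 locus was 8.77 and 7.48 against 7.69 and 7.18. At Mir223, a microRNA gene of myeloid cells, TCONS_00111306 had 0.000697 and 0.863 against 1.10 and 1.35 (-2.08, adjusted p = 0.11). It passed only without left ventricle column 2 (-3.71, adjusted p = 0.0027).

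Isoforms called in opposite directions were found at 2 loci, the Mir29b-1 locus and XLOC_054890, which includes Prkcz (chr5:176090452-176360731). At the Prkcz locus, TCONS_00088080, without a reference gene, was listed at 0 in left ventricle and had 2.30 and 2.66 in outer medulla (log2 ratio -4.69, SE 0.37, adjusted p = 1.2e-04). The Prkcz transcript itself had the reverse pattern, given above. Their sum did not pass (-0.97, adjusted p = 0.060). The count of 2 such loci became 1 without left ventricle column 1 or outer medulla column 1 and 4 without outer medulla column 2. A chromosome 2 locus (XLOC_035736) paired an outer medulla transcript with one that was alike. There TCONS_00057726, described above, stood beside TCONS_00057724, which had 17.4 and 26.3 in left ventricle against 16.6 and 24.1 in outer medulla. The locus as a whole did not pass (-0.61, adjusted p = 0.056).

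**Figure D3:**
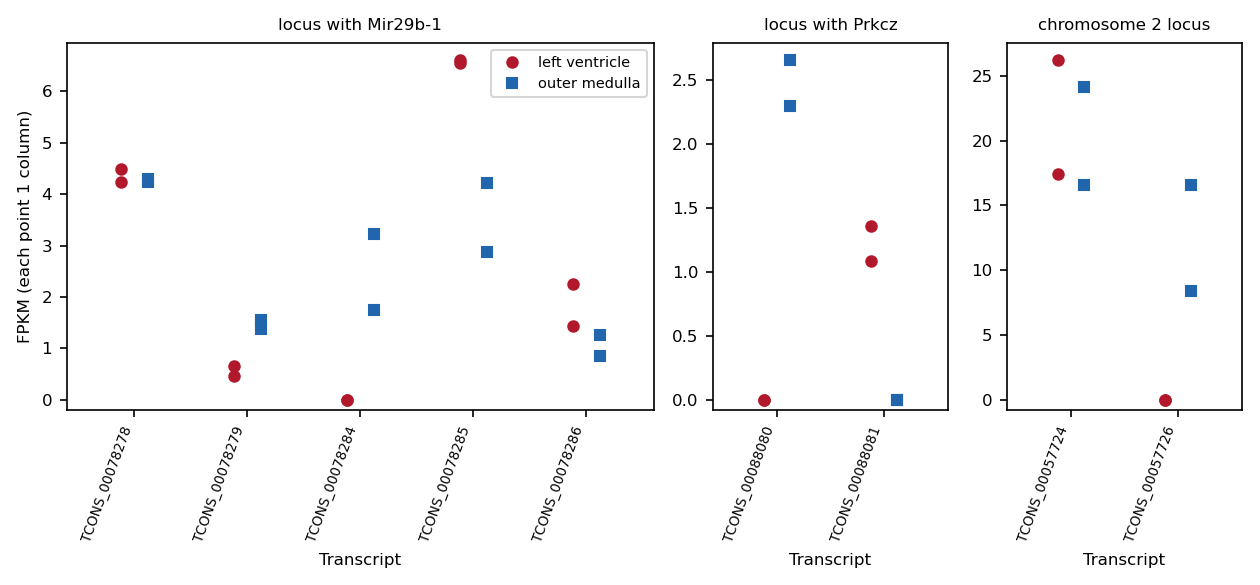
FPKM of the tested transcripts at the Mir29b-1, Prkcz and chromosome 2 loci, with circles for the 2 left ventricle columns and squares for the 2 outer medulla columns. At each locus at least 1 transcript is listed at 0 in both left ventricle columns while another is as high or higher there.

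Most loci with a called transcript were also called as a whole. FPKM summed per locus was tested at 551 loci, of which 323 (58.6%) passed, 139 (25.2%) higher in left ventricle and 184 (33.4%) in outer medulla. The 343 called transcripts lay at 280 loci, and 272 of these were also called as sums. The remaining 8 were tested and did not pass. At 1269 of all 1646 loci there was 1 transcript, so the sum is that transcript. Agreement at such loci was nearly fixed in advance and is no separate support. A further 51 loci passed as sums without any called transcript, and 29 of them had no transcript high enough to be tested alone. At 47 loci 2 or more transcripts were called, and at 11 loci 3 or more.

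A shared set was expressed in both tissues. FPKM was 1 or more in all 4 columns for 119 transcripts at 111 loci. Of these, 18 were higher in left ventricle and 11 in outer medulla (24.4% called). A transcript was called alike when the 95% interval of its log2 difference lay inside -1 to 1, and 22 met this. The other 68 neither passed the test nor had so narrow an interval, so their likeness is not known at this spread. The median half-width of the interval among the 119 was 0.90.

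The most abundant lncRNA of both tissues was alike. TCONS_00012467, of 11142 bases (chr1:228080092-228091758), had an FPKM of 1112 and 953 in left ventricle against 833 and 837 in outer medulla. The log2 difference was 0.30, with an interval of -0.12 to 0.72. It did not meet the rule without left ventricle column 2, where the difference was 0.41. TCONS_00012465 of the same locus had 98.6 and 190 against 185 and 212, and its difference of -0.53 had too wide a spread for either call. Summed over the 4 transcripts of the locus, the levels were 1211 and 1144 against 1020 and 1050.

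Other alike transcripts had nearly equal values in all 4 columns. TCONS_00103824 (chr8:45726441-45732210) had 20.0 and 17.9 in left ventricle against 20.3 and 20.1 in outer medulla. TCONS_00021906, a match to ENSRNOG00000047539 (chr11:31873796-31877080), had 15.2 and 14.9 against 14.4 and 14.8. TCONS_00012470, of 22514 bases (chr1:228114561-228137221), had 34.3 and 32.4 against 28.1 and 28.9. The log2 differences of these 3 were -0.10, 0.05 and 0.23, and their columns of the 2 tissues lay within a narrow range. TCONS_00101331, which shares a splice junction with ENSRNOG00000014846, had 9.10 and 7.93 against 10.5 and 10.1 (-0.27). TCONS_00106149, a match to ENSRNOG00000048566, had 6.98 and 7.12 against 7.13 and 8.79 (-0.17). TCONS_00049656 overlaps Nrep, a gene known from neuronal regeneration. It had 6.04 and 6.37 against 6.07 and 6.44 (-0.01), but 38.2 and 72.8 in liver, so likeness of both tissues did not extend to liver. Transcripts at Chd2 and Smarce1, both chromatin remodelling genes, at NUDT21, of message 3′ end processing, and at Rbpj, the transcription factor of Notch signalling, were alike as well. Their log2 differences were -0.02, -0.02, -0.18 and -0.25, and these 4 were named after their values were seen.

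The set of alike transcripts was sensitive to single columns and to scaling. Its number was 14 without left ventricle column 2, 11 without outer medulla column 1 and 10 without outer medulla column 2, while it was 40 and 42 without liver column 1 or 2. The liver columns enter through the pooled spread, and 94 of 473 liver transcripts at FPKM 1 or more (19.9%) differed at least 4-fold between them. After rescaling, 25 transcripts were alike, of which 13 were among the 22. The transcripts at Nrep, Mir29b-2 and Mir143 did not meet the rule without any one of the 4 columns of both tissues (log2 differences -0.05 to 0.03, -0.10 to 0.12 and -0.30 to -0.18), nor that at Mir143 without cortex column 1 or 2. TCONS_00012470 did not meet it without left ventricle column 2 or outer medulla column 2 (0.25 to 0.27), TCONS_00057724 without left ventricle column 1 or outer medulla column 2 (0.36 to 0.39), and TCONS_00106149 without outer medulla column 1 (-0.32). After rescaling, TCONS_00012470, TCONS_00057724 and the transcripts at Nrep and Mir29b-2 did not meet the rule either. Nor did TCONS_00057724 when the 4 columns were fitted alone. TCONS_00103824, TCONS_00021906 and TCONS_00101331 met the rule under every alternative run.

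**Figure D4:**
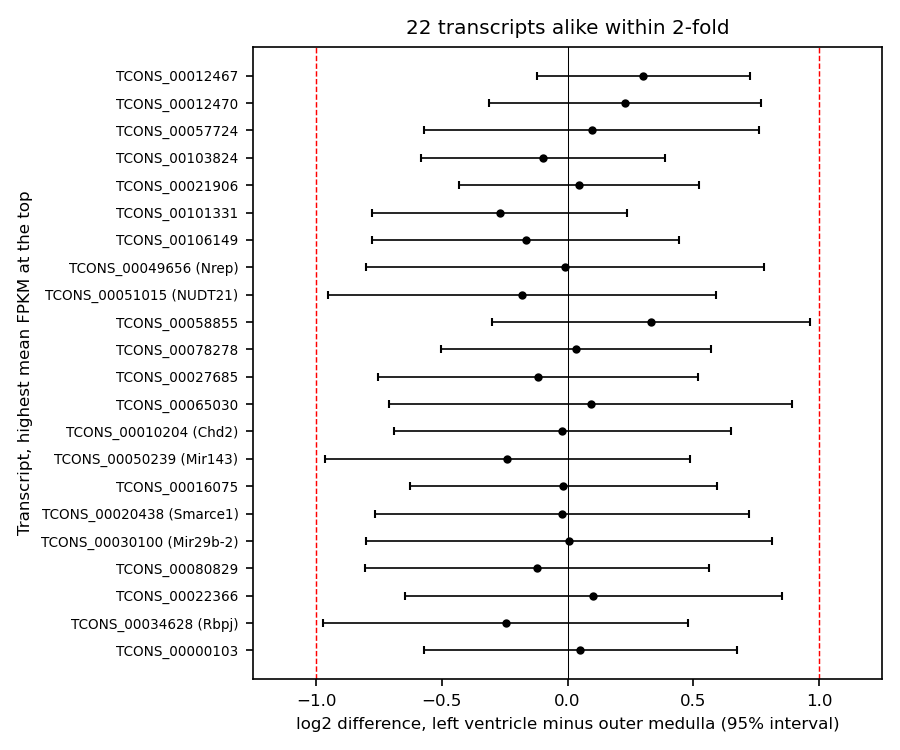
Log2 difference, left ventricle minus outer medulla, with its 95% interval for each of the 22 transcripts alike within 2-fold, ordered by mean FPKM with the highest at the top. All intervals lie between the dashed lines at -1 and 1 by the rule that chose them, and TCONS_00012467 has the highest mean.

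Among the shared transcripts, some differences exceeded 4-fold and others were smaller. Towards left ventricle, TCONS_00072185, at Mkks, a chaperonin-like gene, had 13.7 and 17.9 against 4.72 and 2.99 (log2 difference 2.03, adjusted p = 0.0027). TCONS_00026386, at ENSRNOG00000001347, had 16.4 and 14.1 against 4.50 and 4.43 (1.75, adjusted p = 8.2e-04). Towards outer medulla, TCONS_00005817, at Glyat, an enzyme gene that conjugates glycine to acids in liver and kidney, had 2.41 and 1.27 against 10.9 and 10.7 (-2.56, adjusted p = 0.020). A second Glyat transcript, TCONS_00005818, had 2.84 and 2.22 against 11.8 and 9.16 and did not pass (-2.01, adjusted p = 0.057). TCONS_00068679, at Ndrg3, had 3.27 and 2.22 against 6.35 and 9.61 (-1.50, adjusted p = 0.028). These 5 transcripts were chosen after their values were seen, as examples of transcripts that both tissues expressed.

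The 2 sets of called transcripts differed in where else they were found. Of the 195 higher in outer medulla, 132 (67.7%) had a mean of at least 1 in cortex, 31 (15.9%) in liver and 29 (14.9%) in adrenal gland. Of the 148 higher in left ventricle, 23 (15.5%) reached that level in cortex, 37 (25%) in liver and 27 (18.2%) in adrenal gland. Among all 623 tested, 318 did so in cortex, 214 in liver and 208 in adrenal gland. A mean below 0.5 in all 3 of these tissues was found for 84 (56.8%) of the left ventricle set and 38 (19.5%) of the outer medulla set, beside 138 (22.2%) of all tested. No organ is named in the label of the cortex sample. Of the 22 alike transcripts, 21 reached a mean of 1 in cortex, 19 in liver and 20 in adrenal gland. The cortex, liver and adrenal gland levels were not used to choose either set, but their columns entered the pooled spread, and no test of this difference was made.

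**Figure D5:**
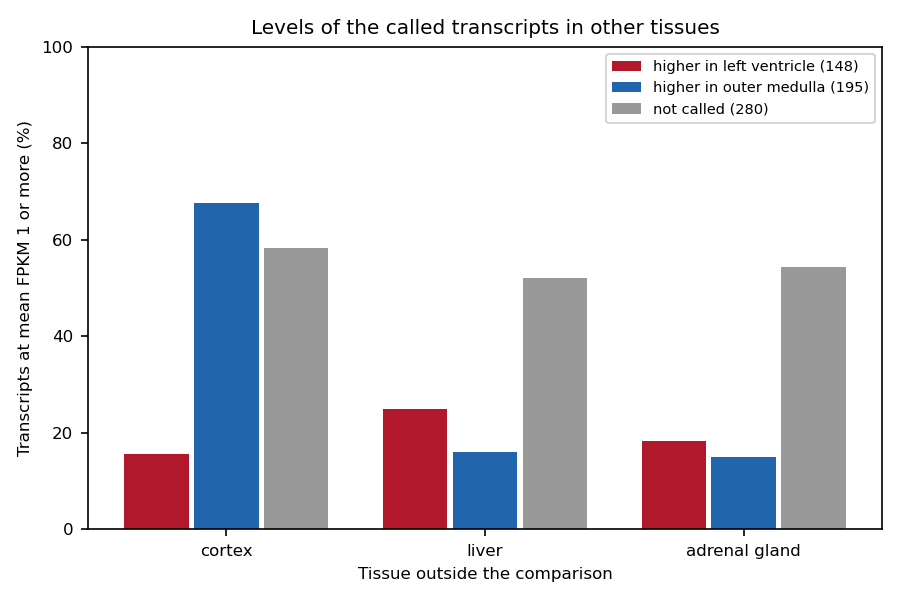
Percent of transcripts that reach a mean FPKM of 1 in cortex, liver and adrenal gland (axis from 0 to 100), for the 148 transcripts higher in left ventricle, the 195 higher in outer medulla and the 280 that did not pass. Outer medulla transcripts reach 67.7% in cortex against 15.5% for left ventricle transcripts, while both sets lie at 25% or less in liver and adrenal gland.

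Calls were spread unevenly over the classes of transcript. Of 435 tested transcripts without a reference gene, 261 (60%) passed, 111 towards left ventricle and 150 towards outer medulla. Of 53 antisense to an exon of a reference gene, 42 (79.2%) passed, 17 and 25. Of 28 that match a reference transcript, 6 (21.4%) passed, 5 and 1, and of 52 that share a splice junction, 11 (21.2%) passed, 4 and 7. Of 55 with another overlap, 23 (41.8%) passed, 11 and 12. These stand beside 55.1% of all tested, and no test between classes was made. The classes also differed in how many reached an FPKM of 1 in all 4 columns. This held for 7 of the 53 antisense transcripts and 24 of the 52 that share a splice junction. Of the 22 alike transcripts, 11 had a reference gene and none was antisense. Only the 119 transcripts at that level in all 4 columns could be alike. Of these 119, 53 had a reference gene and 7 were antisense, so neither count of alike transcripts is a separate result. The median length was 1567 bases in the left ventricle set and 2129 in the outer medulla set, and 4 and 1 transcripts were shorter than 300 bases.

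The marker genes of the tissues were almost absent from the table, which is restricted to lncRNAs. The outer medulla label could be checked only in part and the left ventricle label not at all. Of 45 cardiac muscle genes, 1 was found as a reference gene (Myl1, described above), and of 22 cardiac transcription factors, none. The Myl1 transcript had similar levels in cortex and adrenal gland, so it does not mark left ventricle. Of 50 genes of outer medulla tubule transport, 1 was found (Slc12a1). Of 45 kidney transcription factors, 5 were found, and the 2 with a tested transcript, Grhl2 and Irx2, were both higher in outer medulla, beside 31.3% of all tested. Transcripts at the other 3, Irx3, Emx2 and Wt1, were too low to test. The median log2 difference of the 2 tested was -4.29, beside -0.29 over all tested. Of 49 symbols in a list for known lncRNAs, 3 were found: Mir675, a microRNA gene within H19, Plagl1, a zinc finger gene, and Snhg11. Each symbol is that of the reference gene a transcript is assigned to. Their 3 tested transcripts gave 1 call towards left ventricle (Mir675) and 2 towards outer medulla (Plagl1 and Snhg11). These stand beside 23.8% and 31.3% of all tested, and the median of the 3 was -2.40. Of 94 microRNA host symbols, 8 were found, and their 6 tested transcripts gave 0 calls by limma, with a lowest unadjusted p of 0.068 (Mir223) and a median of -0.03. At an unadjusted p below 0.05, 0 of the 6 and 369 of all 623 transcripts passed (59.2%). Of the 6, 3 are isoforms of the Mir143 locus and 2 of the Mir29b-2 locus, so they are not 6 separate members. Of 40 genes of vessel, stroma and blood cells, 2 were found (Tcf21 and Pdgfrb). Their 3 transcripts summed to at most 0.233 FPKM in a left ventricle column and 0.146 in an outer medulla column, and none was tested.

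Transcripts high in 1 tissue were present at a low share in the columns of the other, and this share differed between columns. For 13 transcripts at a mean of 5 or more in left ventricle and 10-fold over liver, cortex and adrenal gland, the median level was 2.26% of the left ventricle mean in outer medulla column 1 and 1.06% in column 2. Column 1 exceeded column 2 for 11 of the 13. For 23 transcripts at a mean of 5 or more in outer medulla and 10-fold over liver and adrenal gland, the median was 4.64% of the outer medulla mean in left ventricle column 1 and 0.742% in column 2. Column 1 was higher for 16 of the 23. In adrenal gland the median was 3.33% in column 1 and 1.05% in column 2, so the lower share in column 2 was not particular to left ventricle. It was not general either, since in liver the medians were 0.158% in column 1 and 0.237% in column 2. For the 13 left ventricle transcripts, adrenal gland also had more in column 2 (0.349% and 0.737%). The choice of transcripts itself limited the shares in liver and adrenal gland. The part of this share in the differences above was not tested. Without left ventricle column 1, the calls numbered 138 towards left ventricle and 178 towards outer medulla.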

How the data were processed

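Per the labels' protocols, TRIzol was used to extract total RNA, and libraries came from the TruSeq Stranded RNA LT kit. The submitters' processing notes name the build rn5 and bcl2fastq 2.15.0. The authors deposited one table of FPKM for transcripts they had selected as lncRNAs, with transcript lengths and class codes. The sources used here do not name the aligner or the FPKM program, nor its strand setting or the criteria for an lncRNA. Coordinates are those of the table, which does not state whether starts count from 0 or 1. The 2 columns of code B fit no label and were not used. The table gave no counts, so no count test was run. Fragment totals were read from the steps of low FPKM values, assuming a mean fragment of 140 bases, with 87.4 to 91.0% of those values in the 4 columns within 0.15 of a whole number.

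The FPKM as deposited were tested with limma 3.58.1 (R 4.3.3, mean-variance trend) on log2(FPKM + 0.1) over 10 columns of 5 tissues, with transcripts at a mean of 1 or more in any of them in the fit (1181) and those at 1 or more in left ventricle or outer medulla tested, adjusted by Benjamini-Hochberg at 0.05. Differences are on that scale, which understates changes of low transcripts, and no bound is given for a listed 0. Tables were handled with Python 3.11.15 and pandas 2.3.3, and figures drawn with matplotlib 3.10.9. The code was run on simulated data with known changes. There a transcript had the same mean in all tissues but for the added changes, so error rates in these data were not measured. Named transcripts followed a rule: the 5 highest in each tissue; per direction the 8 largest differences, the 5 highest called and up to 10 with a symbol; the 8 highest that were alike; up to 4 loci with opposite isoforms; the 3 loci per direction with the largest difference; and all members of the 7 gene lists. The comparison, its members and the lists were chosen with earlier results of these data known. MicroRNA sequences are from RefSeq GRCr8, matched by name, with Mir365 listed there as Mir365b. Alternatives covered the pseudocount, FPKM minimum, columns in the fit, scaling, column number as a block, variance model, detection minimum, a rule of size and each column left out. One more, the correlation over transcripts detected in both tissues, was chosen after seeing the data.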

Additional observations from a re-analysis of the deposited data

How the results depend on the processing

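Of the 45 named transcripts that passed, 27 passed under all 20 alternatives, 7 passed wherever they were tested but were too low to test under at least 1 (the FPKM minimum of 2 for each), 11 were lost under at least 1 and 0 turned. Of the 10 named alike transcripts, 3 met that rule under all. With an FPKM minimum of 2, 175 transcripts passed (87 higher in left ventricle, 88 in outer medulla) and 184 loci (92 and 92). With a minimum of 0.5 or none, 306 and 316 transcripts were higher in outer medulla. Alike transcripts numbered 53 with a pseudocount of 1, 34 with a minimum of 0.5, 90 with no minimum, 35 with the 4 columns alone and 37 without liver columns. Loci with opposite isoforms numbered 4 with a minimum of 0.5, 5 with none, 1 with a minimum of 2 and 1 with the 4 columns alone. Detection in left ventricle, outer medulla and both was 1182, 1367 and 902 at FPKM 0.1, and 368, 432 and 177 at FPKM 1. The correlation was -0.0613 with a pseudocount of 0.01, 0.322 with 1, -0.0277 with a minimum of 1 and 0.561 over transcripts detected in both. Leaving out each column in turn, 280 to 376 transcripts passed (125 to 165 higher in left ventricle, 155 to 212 in outer medulla), 257 to 351 loci (114 to 151, 141 to 200), alike transcripts numbered 10 to 42, opposite loci 1 to 4, and the correlation was -0.00847 to 0.0347. A tissue left with 1 column is assumed to vary like the others. The cause of these shifts was not tested; a higher minimum tests fewer transcripts. Deviations of same-numbered columns correlated from -0.05 to 0.148 over 10 pairs of tissues (0.0176 for left ventricle and outer medulla). Such weak correlations cannot tell whether same-numbered columns share an animal or a run, which the labels do not state. With the column number as a block 344 transcripts passed (149 and 195). The planned fit with hypothalamus columns was not run, since no column name fits that label. Low values in left ventricle, the shallower tissue here, are the less precise.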

Other observations

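Transcripts of the gene lists that were too low to test are given as values. The transcript at Irx3, an Iroquois homeobox gene, had 0.197 and 0.0991 FPKM in left ventricle and 0.751 and 0.878 in outer medulla. The transcript antisense to Emx2, a homeobox gene of kidney development, was listed at 0 in both left ventricle columns. In outer medulla it had 0.00346 and 0.406. The transcript antisense to Wt1 was listed at 0 in all 4 columns. Levels of the genes themselves were not measured here. Among 4 tested transcripts with the values of another row in every column, 2 passed, namely TCONS_00020816 and TCONS_00020817 (7.19 and 7.29 in left ventricle against 2.42 and 1.60 in outer medulla), so these 2 calls rest on 1 set of values.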
